A study of Mus musculus with 2 samples.

Results

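Ezh2 and 9 other enzymes or subunits that add or remove methyl groups on histones and DNA were followed in a STAT5 binding experiment on mouse CD8 T cells. The 10 genes, chosen by name, were Ezh2, Eed, Suz12, Ehmt2, Kdm6b, Dnmt1, Dnmt3a, Tet1, Tet2 and Tet3. A gene was counted as having STAT5 regions if the deposited table listed it by that name. By this rule 8 of the 10 were listed, with 11 regions between them, in a table of 4934 genes and 5703 regions that holds 19.1% of the protein-coding genes of RefSeq. Eed and Tet1 were not listed. The set was proposed with the heights of these data known, Ezh2 and Ehmt2 being among the largest, so all heights below are descriptions of these libraries and no test was made on them.

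STAT5 was recovered with an antibody and the bound DNA was sequenced (ChIP-seq). The cells were OT-I CD8 T cells on the C57BL/6 background, whose transgenic T cell receptor recognises the SIINFEKL peptide of ovalbumin. In both groups they had been transferred into mice, primed there with the peptide plus agonists that engage CD134 and CD137, a pair of costimulatory receptors, and recovered by sorting of spleen cells 4 days after that. The control group was 1 library of cells kept for 1 hour with no IL-2 added. The other group was 1 library of cells exposed to IL-2 at 0.5 µg/ml for the same 1 hour. The number of animals pooled is not stated in these sources, and OT-I cells all carry the same receptor, so the libraries describe effector cells of a single specificity. The assay measures binding and not expression. Of 7 T cell marker genes 6 had a region, of 5 B cell markers 1 and of 5 myeloid markers 2, but a region near a gene does not show which cells were in the sample.

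IL-2 binds its receptor on activated T cells and activates the kinases JAK1 and JAK3, which phosphorylate STAT5. Phosphorylated STAT5 dimers enter the nucleus and bind a palindrome with the core TTCNNNGAA. Polycomb repressive complex 2 (PRC2) holds Ezh2, the catalytic subunit that methylates the H3K27 residue of histone H3, with Suz12 and Eed, and marks genes for silencing. Kdm6b removes that mark. Ehmt2, also called G9a, methylates the H3K9 residue. Dnmt1 copies cytosine methylation after DNA replication, Dnmt3a adds it at unmethylated sites, and the Tet enzymes oxidise methylcytosine as a step towards its removal. In CD8 T cells, Ezh2, Dnmt3a and Tet2 are known to influence the balance between effector and memory fates.

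Values are peak heights in the signal units of the deposited table, and a gene's height is the mean over its regions. The median of the 4934 listed genes was 5 in the control library (quartiles 4 and 5.8) and 20.75 in the IL-2 library (quartiles 15 and 33). The lowest IL-2 height in the table was 9, so a gene that is absent had no called region and may still have carried signal below the level at which regions were called. Read counts are not in the table, so the depth and the counting error behind each height are unknown. Ratios were taken as IL-2 height plus 5 over control height plus 5 and are given as log2.

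Ezh2 had the highest STAT5 signal of the set. It had 1 region, whose height was 5 in the control library and 137 in the IL-2 library (log2 ratio 3.83). The control height equalled the median of all listed genes, while the IL-2 height ranked 7 among 4934 genes. By highest single peak, which does not average over regions, Ezh2 ranked 60, since genes with several regions can hold a high peak beside low ones. The region lay on chromosome 6 at 47593728 (mm10), 1302 bp inside the gene, which runs on the minus strand from 47595030 to 47530274. No other gene was assigned to it. The nearest region that was not assigned to Ezh2 lay 217 kb beyond the gene, so the signal at this locus came from a single place in the table.

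By a rule of nearest control height, IL-2 height and highest peak, the genes most like Ezh2 were Gm10735, Gpx8 and Mir449a. They share 1 region on chromosome 13 with each other and with Cdc20b and Mir449b, and that region had heights of 6 and 136. They are thus 1 locus rather than several, and the likeness is over 2 libraries only.

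**Figure D1:**
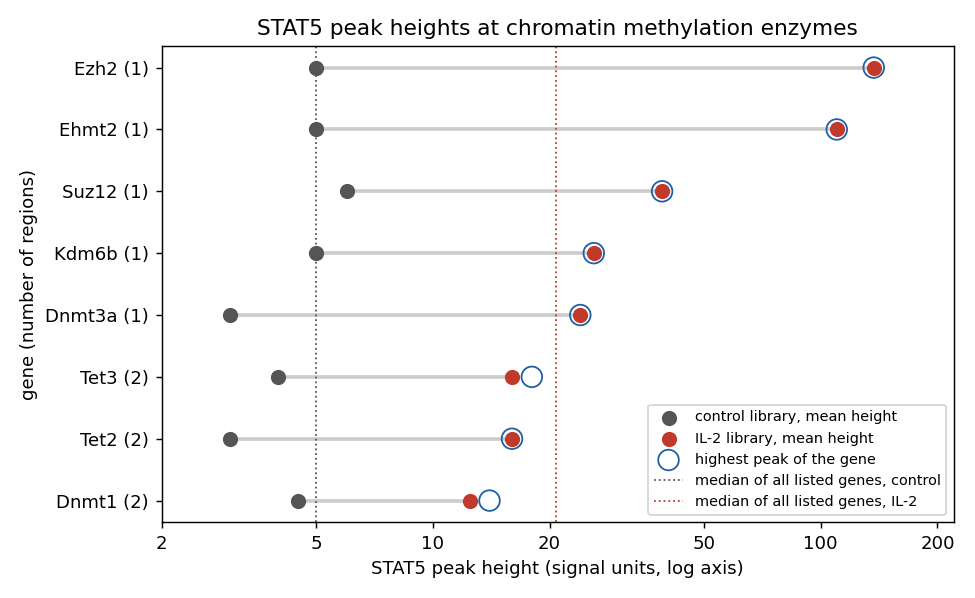
STAT5 peak height (signal units, log axis) at the 8 listed genes, with the number of regions in brackets. Grey points are the control library, red points the IL-2 library (both means over the gene's regions, 1 library each, so no error bars), open blue circles the highest peak, and dotted lines the medians of all listed genes. Control heights span 3 to 6, while IL-2 heights span 12.5 at Dnmt1 to 137 at Ezh2.

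Suz12, the PRC2 subunit that Ezh2 needs for activity, had 1 region with a control height of 6 and an IL-2 height of 39 (log2 ratio 2.00). This height was above the upper quartile of all genes and ranked 893. The region lay on chromosome 11 at 79992416, 690 bp upstream of the Suz12 start at 79993106. It was shared with Gm10386, a short gene on the opposite strand whose start lies 470 bp from the region, and no RefSeq gene covered the position. Eed, the PRC2 subunit that binds the trimethylated mark, was not listed. The nearest region to Eed lay 42.4 kb away on chromosome 7 at 90023328 and was assigned to E230029C05Rik, with 6 and 14. Of the genes for the 3 core subunits, 2 had a region, where the share over all protein-coding genes was 19.1%.

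Kdm6b, the demethylase of the mark that Ezh2 makes, had 1 region with a control height of 5 and an IL-2 height of 26 (log2 ratio 1.63). The region was at 69410496 on chromosome 11, 3179 bp inside the gene as the table draws it, and was also assigned to Dnahc2, whose start is 138612 bp away. The RefSeq model of Kdm6b begins 6692 bp farther out than the table's, which puts the region 9871 bp from the outermost start. The position stays inside Kdm6b in both models.

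Ehmt2 had the other high signal. Its 1 region had a control height of 5 and an IL-2 height of 110 (log2 ratio 3.52). Ehmt2 ranked 32 among all genes by mean height and 172 by highest single peak. The region lay on chromosome 17 at 34896384, 2115 bp upstream of Ehmt2 and inside its neighbour Zbtb12, 1825 bp from the start of that gene. Zbtb12 encodes a zinc finger protein, and both genes run on the plus strand with Zbtb12 first. Zbtb12 had a second region at 34887904, 6655 bp upstream of its start, which was shared with the complement gene C2 and had 8 and 18. The mean over its 2 regions gave Zbtb12 heights of 6.5 and 64 with the same highest peak of 110. The table cannot say whether the high region belongs to Ehmt2, to Zbtb12 or to both.

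Dnmt3a had 1 region with a control height of 3 and an IL-2 height of 24 (log2 ratio 1.86). In the table it is 84412 bp inside the gene, on chromosome 12 at 3891392. Dnmt3a is also transcribed from an internal start that gives a shorter protein. RefSeq places a Dnmt3a start at 3891744, and the region lay 352 bp upstream of it. The distance in the table, measured from the long form, therefore describes a region close to the start of the short form. The position also lies in Gm31623, a long non-coding RNA gene.

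Tet2 had 2 regions, each with an IL-2 height of 16, and a control mean of 3 (log2 ratio 1.39). One lay 262 bp inside the gene, on chromosome 3 at 133544128, and the other 3078 bp inside it at 133541312. Neither was shared. Both heights are below the median of all genes.

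Tet3 had 2 regions with mean heights of 4 (control) and 16 (IL-2), a log2 ratio of 1.22. The gene means and highest peaks of Tet3 and its neighbour B230319C09Rik fix the single heights at 14 for the region 49038 bp inside the gene, at 83392640 on chromosome 6, and 18 for the region at 83449056. The second was placed 7378 bp upstream of Tet3 and was shared with B230319C09Rik. RefSeq extends Tet3 by 15530 bp beyond the table's start, and in that model the region is inside Tet3. So is a further region at 83455776, with an IL-2 height of 23, which the table assigns to B230319C09Rik alone. With the longer model Tet3 would have 3 regions, the highest of them one that is not counted for it here.

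Dnmt1 had the lowest signal of the listed set. Its means over 2 regions were 4.5 (control) and 12.5 (IL-2), a log2 ratio of 0.88, and only 10.8% of listed genes had a lower IL-2 height. The region 18928 bp inside the gene had 5 and 11. The region 1552 bp upstream, on chromosome 9 at 20961440, had 4 and 14 and was shared with S1pr2, a receptor for sphingosine 1-phosphate. Tet1 was not listed, and the nearest region of any gene lay 298 kb from it.

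**Figure D2:**
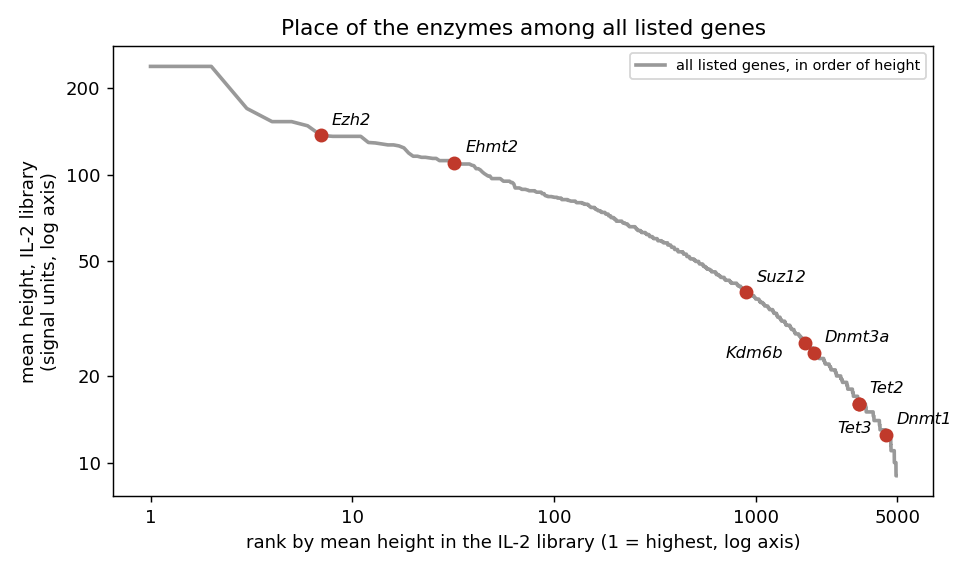
Mean height in the IL-2 library (signal units, log axis) of all 4934 listed genes in order of rank (log axis, grey line), with the 8 listed enzymes as red points. Ezh2 at rank 7 and Ehmt2 at rank 32 stand near the top, while Tet2 and Tet3 (both 16) and Dnmt1 (12.5) lie in the lower part.

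Across the 8 listed genes, IL-2 heights differed by 11-fold between the highest and the lowest and control heights by 2-fold. Highest peaks of at least 100 were found at 2 of the 8, against 4.88% of all listed genes, a value the choice of members used. The IL-2 height was at or above the median of all listed genes at 5 and below it at 3. The members below the median were the 3 with 2 regions. The ratio reached 2 at 7 of the 8, all but Dnmt1, where the share over the whole table was 83.8%. With the libraries scaled to equal medians it reached 2 at 2 of the 8, Ezh2 and Ehmt2, and at 586 of the 4934 genes. A ratio of at most 0.5 was found at none, as for all genes in the table (0.0%), since genes were listed for a region in the IL-2 library. None of the 8 had a region called in the control library, as was so for all but 0.243% of genes. Scaling to equal medians shifted the median log2 ratio of all genes by -1.28. After it 6 of the 8 had the higher value in the IL-2 library, where 58.7% of all genes did. Dnmt1 and Tet3 had the lower value there. Because this scaling removes the overall difference between the libraries, genes with the smaller ratios fall below 0 by construction. It therefore cannot decide the direction at Dnmt1 and Tet3, and these sources do not state how the libraries were scaled. With this scaling the log2 ratios of Ezh2 and Ehmt2 went from 3.83 and 3.52 to 2.33 and 2.03. Both genes were chosen with their heights known, so these values are no check on them.

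The regions of the set lay both inside genes and upstream of them. The table placed 7 of the 11 inside the member gene, 4 upstream and 0 downstream, against 4169, 2473 and 1695 of the 8337 pairs of region and gene in the whole table. The Tet2 region at 262 bp counts as inside the gene and as near its start. Within 1 kb of a gene start were 2 of the 11, those of Suz12 and Tet2, against 27.5% of all regions. Within 5 kb were 7, against 46.0%. With the RefSeq starts that have a sequence window, described below, the Dnmt3a region joined those within 1 kb and made 3 of 11. The share over the table was 25.6% of the 5526 regions on chromosomes with such starts. Kdm6b has no such start, so its region was measured here only against starts of other genes. The 2 highest regions, at Ezh2 and Ehmt2, were outside 1 kb. Regions assigned to more than 1 gene were 5 of the 11, against 30.1% of all regions. The member had the nearest start of the genes sharing the region at 2 of these 5, those of Kdm6b and Dnmt1, while at Suz12, Ehmt2 and Tet3 the other gene's start was nearer.

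**Figure D3:**
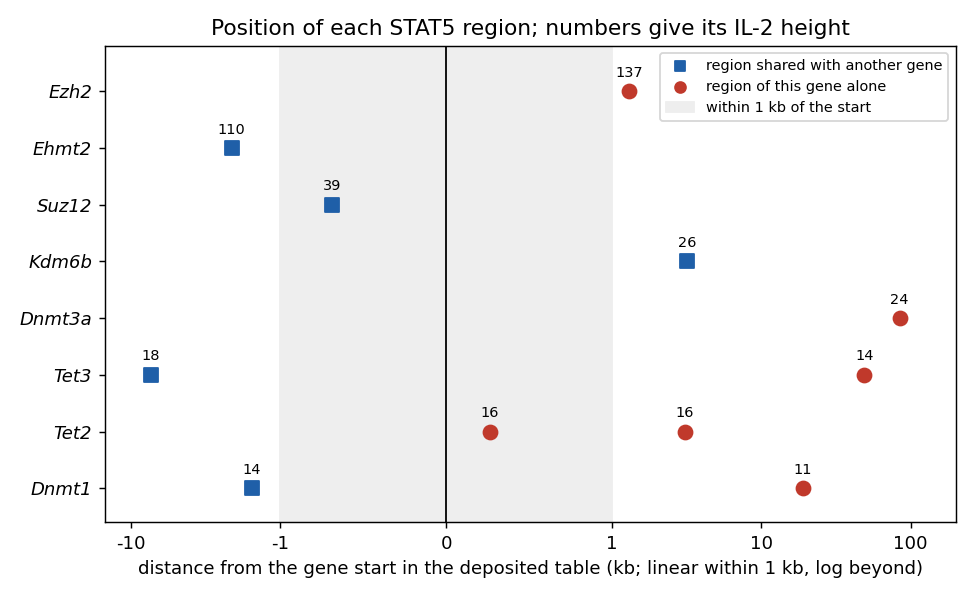
Distance of each of the 11 regions from the member's start in the deposited table (kb, linear within 1 kb and log beyond, positive values inside or past the gene). Blue squares are regions shared with another gene, red circles regions of the member alone, and the numbers are IL-2 heights in signal units. The regions of 137 and 110 lie outside the grey band of 1 kb, which holds those of Suz12 and Tet2.

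The sequences around the starts are shown for the members with a region within 1 kb of a RefSeq start, because there the printed bases come closest to the bound position. The windows come from RefSeq (GRCm38.p6, the mm10 build), run 5′ to 3′ on the gene's strand, and hold 250 bases before and 50 after the start. Of the 10 genes 9 had such windows, 14 in all. Region widths are not in the table, and each position lay outside the window printed here, by 440 bases at Suz12, 102 at Dnmt3a and 213 at Tet2. In the Suz12 window (chr11:79992856-79993155, plus strand) the capitals mark TTC and GAA separated by 4 bases, a spacer 1 base longer than in TTCNNNGAA. This longer form was in 8.47% of windows that held a region position, against 6.95% of all windows. The match is therefore not shown as a STAT5 site. In the windows of the short Dnmt3a form (chr12:3891494-3891793, plus strand) and of Tet2 (chr3:133544341-133544640, minus strand) the capitals mark the bases from the annotated start on.
Suz12: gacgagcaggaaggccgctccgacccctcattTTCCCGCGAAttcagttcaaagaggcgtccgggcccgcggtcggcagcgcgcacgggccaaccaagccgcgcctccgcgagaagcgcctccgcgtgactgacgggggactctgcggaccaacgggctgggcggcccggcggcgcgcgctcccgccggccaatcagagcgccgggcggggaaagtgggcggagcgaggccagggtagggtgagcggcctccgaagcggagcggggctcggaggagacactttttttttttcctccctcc
Dnmt3a: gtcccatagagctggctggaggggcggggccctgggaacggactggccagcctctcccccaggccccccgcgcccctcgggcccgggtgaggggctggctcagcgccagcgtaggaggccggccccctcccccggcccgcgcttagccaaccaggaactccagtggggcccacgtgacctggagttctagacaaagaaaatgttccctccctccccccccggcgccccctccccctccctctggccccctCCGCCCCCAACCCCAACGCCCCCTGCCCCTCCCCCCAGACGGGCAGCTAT
Tet2: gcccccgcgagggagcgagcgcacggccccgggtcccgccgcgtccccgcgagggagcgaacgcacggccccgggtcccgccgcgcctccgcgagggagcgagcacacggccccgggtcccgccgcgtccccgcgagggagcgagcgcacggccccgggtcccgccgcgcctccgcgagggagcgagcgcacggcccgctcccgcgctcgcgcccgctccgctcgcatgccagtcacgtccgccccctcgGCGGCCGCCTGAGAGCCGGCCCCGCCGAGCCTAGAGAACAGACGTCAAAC
All 3 are rich in G and C, at 71.0% for Suz12, 74.0% for Dnmt3a and 81.3% for Tet2, against a median of 52.7% over all windows of the table.

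The palindrome TTCNNNGAA, which reads the same on both strands, was in 0 of the 14 member windows, against 8.30% of all 32851 windows. The form with 4 bases between was in 1 of the 14, that of Suz12, against 6.95%. None of the member windows held a region position. Where a window of any gene did hold one, TTCNNNGAA was present in 46.2% of 437 windows and the longer form in 8.47%. The median distance from the nearest match to the region position was 36 bases there. A missing match in the member windows says only that these letters are not in those bases, which are not the bound positions.

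The 10 genes were set beside 63 further enzymes and partners of the same kinds, in 6 lists of 73 genes in all. Listed with a region were 38 of the 73 (52.1%), and 30 of the 63 without the members (47.6%). Of all 21896 protein-coding genes of RefSeq, 19.1% were listed, whatever their expression in T cells, which was not measured. The lists were chosen with earlier results of these data known, so the difference between these shares was not tested. The median IL-2 height of the 30 was 19, near that of all listed genes, and the ratio reached 2 at 21 of them (whole table: 83.8%). Peaks of at least 100 were found at 2 of the 30, Kdm3a and Whsc1l1, against 4.88% of all listed genes.

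In the list of PRC2 and the H3K27 demethylases, 9 of 13 genes had a region (all protein-coding genes: 19.1%). The ratio reached 2 at 7 of the 9 (whole table: 83.8%). After Ezh2 the highest were Ezh1, the second catalytic subunit of PRC2 (7 and 69), and Phf1, an accessory subunit (7 and 42). The Ezh1 region lay 31666 bp from its start and was shared with Cntnap1, and that of Phf1 lay downstream of the gene. Rbbp4, a histone-binding subunit (7 and 14), and Mtf2 (5 and 13) had low regions within 1 kb of their starts. Besides Eed, the genes Rbbp7, Jarid2 and Phf19 were not listed.

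In the list of H3K9 enzymes, 6 of 14 had a region (all protein-coding genes: 19.1%). The ratio reached 2 at 5 of the 6 (whole table: 83.8%). Kdm3a, a demethylase of that residue, had means of 5 and 67.5 over 2 regions upstream of its start, at 407 and 5815 bp. Its highest peak of 117 leaves 18 for the other region, and the table does not say which is which. Setdb1, a methyltransferase, had 5 and 25 at a region 3310 bp upstream. Ehmt1, the partner of Ehmt2 in its complex, and Suv39h1 were not listed.

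Of the H3K4 list 11 of 18 had a region (all protein-coding genes: 19.1%). The ratio reached 2 at 8 of the 11 (whole table: 83.8%). The highest were Wbp7, now called Kmt2b (6 and 43, shared with Zbtb32 and Upk1a), Smyd3 (4.33 and 31.0) and Men1 (6 and 28). The Men1 region lay downstream of the gene, was shared with Map4k2 and was 264 bp from the nearest RefSeq start. Of the list for H3K36, H3K79 and H4K20, 6 of 11 had a region (all protein-coding genes: 19.1%). The ratio reached 2 at 3 of the 6, below the 83.8% of the whole table. Whsc1l1, an H3K36 methyltransferase now called Nsd3, had 4 regions with means of 5.25 and 79.5. Its heights were 142 and 22 at the 2 regions inside the gene and 131 and 23 at the 2 upstream of it, shared with Letm2, with the order within each pair not determined. Setd2 (3.33 and 21.3) and Kdm2b (5 and 18.5) came next in that list.

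Of the DNA methylation list 6 of 9 had a region (all protein-coding genes: 19.1%). The ratio reached 2 at 5 of the 6 (whole table: 83.8%). The highest was Dnmt3l, a cofactor without catalytic activity (4.5 and 34), but both of its regions were shared with Icosl, a ligand of the costimulatory receptor ICOS. Dnmt3a (3 and 24) followed, with Tet2 and Tet3 level at 16. Tdg, the glycosylase that removes oxidised methylcytosine, had 3 and 13. Dnmt3b and Uhrf1, the partner that guides Dnmt1, were not listed. No arginine methyltransferase was listed (0 of 8), where 19.1% of all protein-coding genes were. With so few genes this was not read as a trait of that family.

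**Figure D4:**
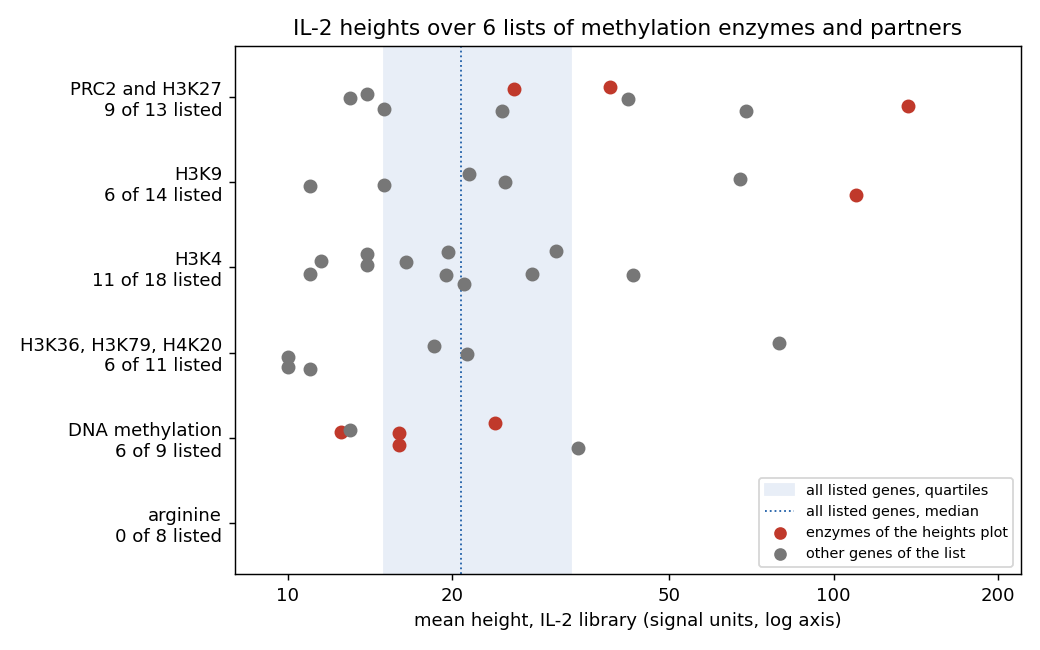
Mean height in the IL-2 library (signal units, log axis) of every listed gene in 6 lists, spread vertically at random within a list. Red points are the enzymes of the heights plot, grey points the other genes, the blue band the quartiles (15 and 33) and the dotted line the median (20.75) of all listed genes. The rightmost points are Ezh2, Ehmt2, Whsc1l1 (79.5), Ezh1 (69) and Kdm3a (67.5). Of the 8 arginine methyltransferases 0 are listed, where 19.1% of all protein-coding genes are.

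Among the 23 listed genes of these lists with a single region, the region lay within 1 kb of the start at 11 and farther away at 12. The median IL-2 height was 14 (range 11 to 39) for the first and 27 (range 10 to 137) for the second, and the ranges overlap. The members are included, with Suz12 (39) in the first group and Ezh2 (137) and Ehmt2 (110) among the second. They were chosen with their heights known, so the contrast is no test. Over all single-region genes of the table the medians were 16 and 19. These distances are to the gene's own start, and at 6 of the 12 the region was within 1 kb of a RefSeq start that has a sequence window. Counted to the start of any listed gene, 42.4% of the 59 regions of these lists lay within 1 kb, against 27.5% of all regions. The 59 include the 11 member regions, of which only 2 lay within 1 kb. Because the lists were chosen with earlier results known, the difference was not tested.

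Windows of 4 listed genes of these lists held a region position, and 1 of the 4 held TTCNNNGAA, where the share over all such windows was 46.2%. Setd7, a lysine methyltransferase, had 1 region with 4 and 21, on chromosome 3 at 51560928, 105 bp upstream of its start and shared with 5031434O11Rik. Its window (chr3:51560774-51561073, minus strand, RefSeq GRCm38.p6) is shown as the window that holds both a region position and a match, in capitals. Their distance of 5 bases is finer than the positions resolve, since 95.6% of all region positions in the table, this one included, are multiples of 16.
Setd7: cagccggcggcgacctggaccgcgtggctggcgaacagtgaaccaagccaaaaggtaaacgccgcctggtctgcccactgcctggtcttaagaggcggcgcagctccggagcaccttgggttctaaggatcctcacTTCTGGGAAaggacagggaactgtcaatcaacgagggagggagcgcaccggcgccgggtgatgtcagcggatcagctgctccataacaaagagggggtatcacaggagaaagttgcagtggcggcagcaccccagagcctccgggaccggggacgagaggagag
Mtf2, Rbbp4 and Rbbp5, the other genes with a region position in the window, had no match.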

How the data were processed

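The submitters' processing notes name BWA and mm10. For the peak caller, read extension, depth and scaling, these sources state nothing. The authors deposited 1 table of genes near regions, with peak heights as a signal that is never negative: the mean height of each library over a gene's regions and the highest peak. Interval names in the deposited table show regions called per library. No column of other samples was present (0 columns). Region positions were computed from gene start and distance, and single heights were solved from whole-number sums and highest peaks. This step was run on simulated data that also had whole-number heights, in groups of at most 3 regions. That run therefore cannot check whether the real heights are whole numbers, nor larger groups of regions. Genes were matched to RefSeq (GRCm38.p6) by gene ID, 10 of 10 members. With 1 library per group no test was possible. The members and lists were chosen with earlier results of these data known. The rule for named genes took all members, genes sharing their regions, the 3 highest of each list and the 3 most like Ezh2. Other list genes (Rbbp4, Mtf2, Tdg, Setd7, Rbbp5 and those not listed) were named after their values were seen. Python 3.11.15 and pandas 2.3.3 were used.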

Additional observations from a re-analysis of the deposited data

How the results depend on the processing

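No paired analysis was possible because the control and IL-2 groups held 1 library each, and so no library could be left out. The 7 listed members whose ratio reached 2 became 2 when scaled to equal medians and 3 with a ratio of at least 4, and were 6 to 8 with the other settings. Over all listed genes 4133 became 586 with that scaling and 1141 with the ratio of at least 4, which is stricter by construction. The count was 2784 when 10 was added to each height in place of 5, and 4769 when 1 was added. Scaling turned the log2 ratio of Dnmt1 to -0.38 and of Tet3 to -0.036, by removing the overall difference between the libraries. Member regions near a start went from 2 within 1 kb to 7 within 5 kb. They went to 3 with the RefSeq starts that have a sequence window, which lack Kdm6b, an alternative chosen after seeing the data. TTCNNNGAA was in 0 promoter windows of the members, and the form with a spacer of 4 bases was in 1. The table gives no read counts, so no interval could be set on any height.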
